A study of Mus musculus with 24 samples.

Results

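The constant regions of the T cell receptor genes were followed through all 8 groups of mouse cells in the series. They were the 7 rows whose gene symbol was Trgc1, Trgc2, Trgc4, Trbc1, Trbc2, Trdc or Trac, out of 55487 gene rows in each of the 2 deposited tables, and all 7 were found in both. The cells were Cas9-LPs, lymphoid progenitor (LP) cell lines grown out of progenitors from the fetal liver. The donor mice were Ebf1-deficient and carried a Rosa26-Cas9 knock-in, so every group lacks Ebf1, a factor needed for the B lineage, and makes Cas9. LPs were kept on OP9 stromal cells with SCF, Flt3L and IL-7, and Phase 1 cells had been placed on OP9-DLL4, the same stroma with the Notch ligand DLL4. Each group carried a retrovirus with an sgRNA and an hNGFR marker, and hNGFR+CD45+ cells were sorted 5 days after transduction. Experiment 1 held LP and Phase 1 cells with sgControl or sgCbfb, and experiment 2 held only LPs, which carried sgControl, sgCbfb, sgCTCF or sgMed12. Each group had 3 libraries. Cbfb encodes the shared partner of the RUNX factors, Ctcf a DNA-binding factor that shapes chromatin loops, and Med12 a subunit of Mediator. The study's methods describe the 3 libraries of each kind as biologically independent, and neither they nor the labels say whether this means separate lines, cultures or transductions. The p-values measure the spread between these libraries.

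A T cell receptor is a pair of chains, either alpha with beta or gamma with delta, and each chain gene is assembled from separate segments by the RAG recombinase. The constant region lies downstream of these segments and is transcribed together with them once the locus has rearranged. Unrearranged loci are also transcribed from promoters upstream of J segments, which gives germline transcripts that end in the same constant region, and this accompanies opening of the locus to the recombinase. In the thymus the gamma, delta and beta loci are opened before the alpha locus. A 3′ end read on a constant region therefore does not tell a germline from a rearranged transcript, and the levels described here are those of both.

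In QuantSeq, reads come from the 3′ part of each polyadenylated transcript, so 2 constant regions can be told apart only where their sequences differ near that end. In GENCODE M21 on mm10, Trgc1 is at chr13:19214103-19217024 on the plus strand, Trgc2 at chr13:19304649-19307551 on the minus strand and Trgc4 at chr13:19344558-19352756 on the plus strand. Their last coding exons, of 140 bases each, are shown because the split of reads between Trgc1 and Trgc2 differed between groups. Coding bases are 515 of 924 in the Trgc1 transcript and 500 of 914 in that of Trgc2. The untranslated rest follows the exon shown, and 3′ reads can lie there as well. Capitals mark bases that differ from Trgc1, with 4 differences in Trgc2 and 44 in Trgc4.
Trgc1: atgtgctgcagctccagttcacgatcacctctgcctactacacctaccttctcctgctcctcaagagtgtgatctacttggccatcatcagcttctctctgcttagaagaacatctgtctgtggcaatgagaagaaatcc
Trgc2: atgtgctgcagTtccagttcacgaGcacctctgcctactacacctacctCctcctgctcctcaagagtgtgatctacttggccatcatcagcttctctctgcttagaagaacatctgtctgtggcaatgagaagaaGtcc
Trgc4: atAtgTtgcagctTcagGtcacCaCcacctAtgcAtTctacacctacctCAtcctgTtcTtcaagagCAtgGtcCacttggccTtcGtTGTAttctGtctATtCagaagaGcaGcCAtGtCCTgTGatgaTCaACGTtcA

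Trbc1 is at chr6:41538218-41539881 and Trbc2 at chr6:41546730-41548352, both on the plus strand. The large coding exon of 375 bases differs at 1 base between them. The last 125 coding bases, which hold the last 2 coding exons, are shown because the genes differ more there, with 19 differences from Trbc1 in capitals. Exon 2, of 18 bases with 3 differences, and the untranslated ends are not shown.
Trbc1: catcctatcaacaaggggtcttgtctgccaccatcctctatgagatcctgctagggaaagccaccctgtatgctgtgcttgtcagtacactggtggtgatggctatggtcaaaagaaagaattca
Trbc2: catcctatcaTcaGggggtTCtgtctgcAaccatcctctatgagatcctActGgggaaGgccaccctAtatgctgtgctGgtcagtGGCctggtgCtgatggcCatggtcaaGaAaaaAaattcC

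Over the whole annotated transcript, 233 of 663 stretches of 75 bases, the read length, were shared by Trbc1 with Trbc2, but 0 of the 226 nearest its 3′ end were. Trgc1 and Trgc2 each shared 30 of the 226 stretches nearest the 3′ end with another gamma constant region, and Trgc4 and Trac shared 0 over their whole length. How reads that fit more than one gene were counted is not given in the sources used here, so Trgc1 and Trgc2 are uncertain as single rows. They are also given in a gamma sum with Trgc4. That sum leaves out Trgc3, with which Trgc1 shared 108 stretches over its whole length, against 42 with Trgc2. Reads counted on Trgc3 are therefore not covered by it, but they were few: the group means of Trgc3 were 0.393 to 2.95 CPM. Reads left uncounted because they fit both genes would not be seen. Trdc, at chr14:54142851-54148868, overlaps Gm43434 and Trdv5 on the other strand, and Trac is at chr14:54220521-54224206, both on the plus strand. Whether the counting used strand is not given in the sources used here.

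The deposited values are CPM, the counts of a gene scaled so that all gene reads of a library have the same sum. Libraries had 1363263 to 1743319 reads on genes in experiment 1 and 3354483 to 4326782 in experiment 2, so that 3 reads, the limit allowed by a count of 0, are 1.72 to 2.20 CPM and 0.693 to 0.894 CPM. Such limits cover counting error only. The third Phase 1 sgControl library stood apart: 60 of the 3357 genes above 50 CPM in both of its mates were under 0.25 times the lower mate there, against 0 or 1 in each of the other 23 libraries. Trgc2 was among the 60, and Trgc1 was low as well. Results on these 2 genes that rest on that library are therefore given with and without it. Cbfb was lower with sgCbfb in LPs of experiment 1 (86.5 to 40.2 CPM, adjusted p = 0.00548) and experiment 2 (114 to 48.4 CPM, adjusted p = 4.34e-06), but not called in Phase 1 (66.5 to 53.9 CPM, adjusted p = 0.591). Ctcf was 391 CPM with sgControl and 306 CPM with sgCTCF (adjusted p = 0.0210, under the fold threshold), and Med12 was 5.14 and 7.01 CPM with sgControl and sgMed12 (adjusted p = 0.663). A 3′ read does not pass the cut site, so these levels do not show how many cells were edited.

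Differences below are on the log2(CPM + 1) scale with their standard error (SE), from limma with Benjamini-Hochberg adjustment over all genes tested. Calling a gene took 3 conditions: an adjusted p under 0.05, group means whose log2 ratio exceeded 1 in size, and more than 10 CPM on average in at least 1 of the groups. The interaction described later had no condition on the ratio. Levels are compared between groups for one gene at a time, not between genes. In bulk RNA, fewer cells of a type and less RNA per cell cannot be told apart. Exact permutation tests of 3 libraries against 3 cannot go under p = 0.1, so no such test could pass 0.05. Groups of 3 that do not overlap are common: between sgCTCF and sgControl this held for 31.1% of all genes tested. The share was not counted for the other comparisons, so lack of overlap is given below as description only.

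The first question was which constant regions differ between LPs and cells that have met the Notch ligand. The largest rise was in both beta constant regions, Trgc4 rose as well, Trac fell, and Trgc1, Trgc2 and Trdc were not called. Called genes made up 3.39% of the 13239 genes tested in this comparison of sgControl cells, and 4 of the 7 constant regions were among them. The median log2 difference of the 7 was 0.23, against -0.07 over all genes tested.

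Trbc1 stood at 2.95, 2.48 and 2.57 CPM in the LP sgControl libraries and at 174, 152 and 171 CPM in the Phase 1 sgControl libraries. These are 5, 4 and 4 reads against 247, 236 and 233 reads, and the log2 difference was 5.51 (SE 0.36, adjusted p = 7.74e-10). Each Phase 1 library lay far above every LP library. Trbc2, its neighbour, was already present in LPs at 31.9, 36.5 and 36.6 CPM and reached 575, 490.3 and 588 CPM in Phase 1. Its log2 difference was 3.94 (SE 0.19, adjusted p = 2.54e-12), again without overlap. Summed, the beta constant regions rose by 4.21 on the log2 scale (SE 0.18, adjusted p = 1.15e-12).

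Among the gamma constant regions, Trgc4 rose from 84.4, 52.6 and 56.5 CPM in LPs to 179, 161 and 199 CPM in Phase 1, a log2 difference of 1.49 (SE 0.18, adjusted p = 6.62e-06). The lowest Phase 1 library was above the highest LP library. Trgc1 had 344, 354 and 306 CPM in LPs and 468, 438 and 158 CPM in Phase 1, with a log2 difference of -0.07 (SE 0.25, adjusted p = 0.923). Trgc2 had 461, 385 and 382 CPM in LPs and 896, 677 and 94.6 CPM in Phase 1, with a log2 difference of -0.08 (SE 0.46, adjusted p = 0.956). In both genes the first 2 Phase 1 libraries were above all LP libraries and the third was below them all. Without the third library the log2 differences were 0.44 (adjusted p = 0.00964) for Trgc1 and 0.93 (adjusted p = 5e-08) for Trgc2, both under the fold threshold. The gamma sum was then 0.80 higher (adjusted p = 1.41e-07) instead of 0.25 (adjusted p = 0.64), and it was not called in either fit.

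Trdc, the delta constant region, was not called: it had 322, 338 and 354 CPM in LPs and 368, 375 and 449.7 CPM in Phase 1, a log2 difference of 0.23 (SE 0.14, adjusted p = 0.383) with an interval of -0.06 to 0.51. The groups did not overlap. Trac, which lies downstream of Trdc on the same chromosome, moved the other way. It had 28.9, 29.7 and 32.1 CPM in LPs and 8.47, 2.58 and 4.40 CPM in Phase 1, which are 49, 48 and 50 reads against 12, 4 and 6 reads. The log2 difference was -2.46 (SE 0.47, adjusted p = 0.00162), and every Phase 1 library was below every LP library.

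**Figure D1:**
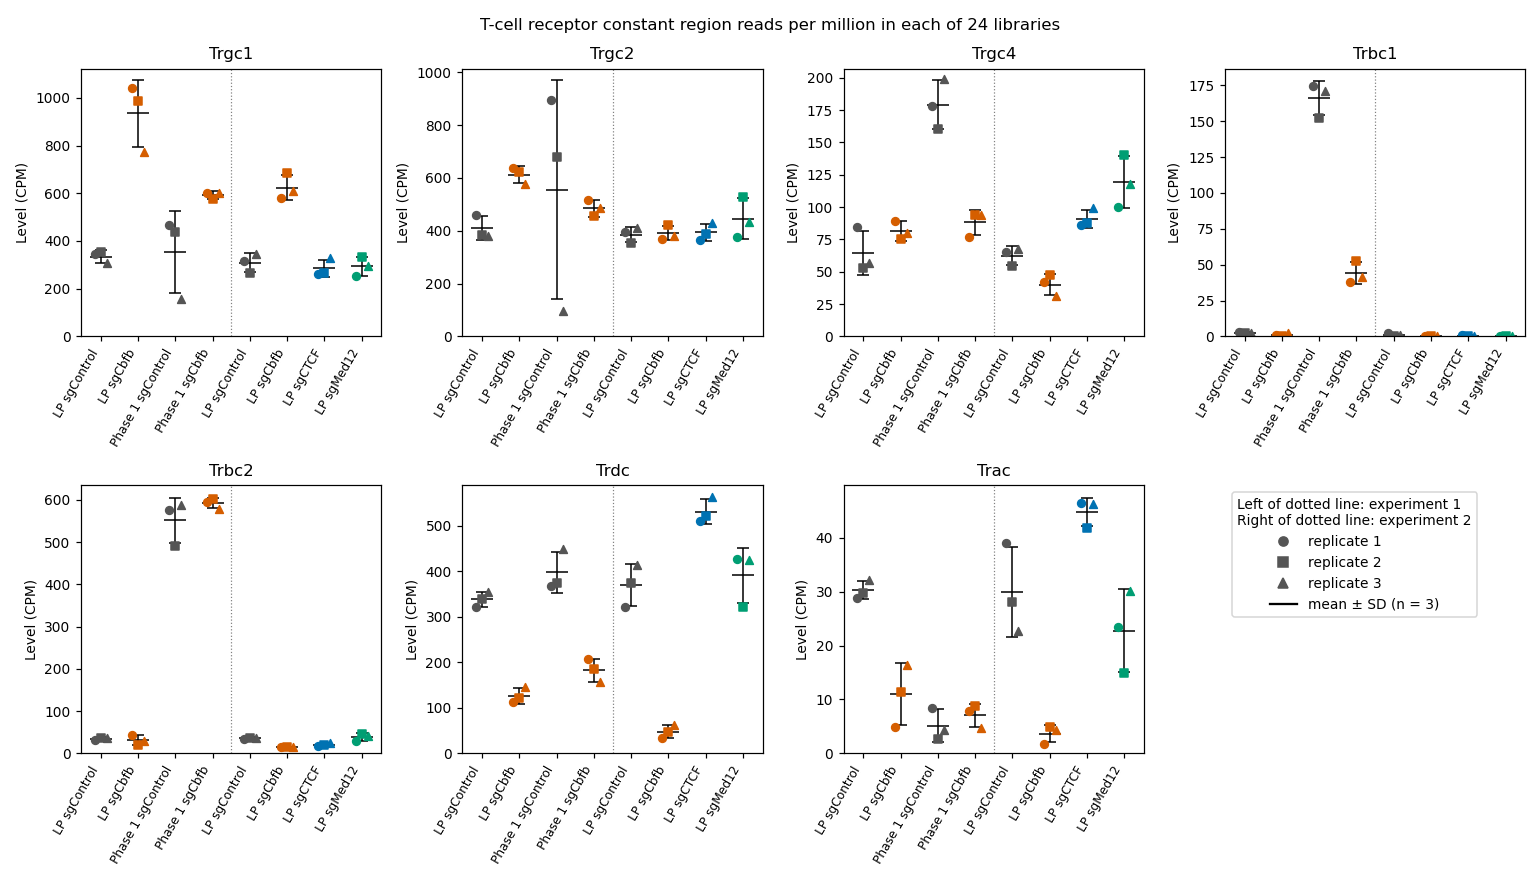
Level of each constant region in CPM, 1 panel per gene with its own linear axis from 0, with a point for each of the 24 libraries by group and lines for the group mean and SD (n = 3); the dotted line divides the experiments. Trbc1 and Trbc2 are high in the Phase 1 groups, Trdc and Trac have their lowest group mean with sgCbfb in experiment 2, with Trac low in Phase 1 as well, and the third Phase 1 sgControl library is low for Trgc1 and Trgc2.

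With sgCbfb, 2 of the 7 constant regions, Trbc1 and Trbc2, were called higher in Phase 1 than in LPs, where 1.19% of all genes tested were called. Whether the stages differ otherwise than with sgControl is the interaction given below. The median log2 difference of the 7 was 0.11, against -0.01 over all genes. Trbc1 had 1, 1 and 3 reads in the LP sgCbfb libraries, at or under the limit of 3 reads, and 38.3, 52.8 and 41.3 CPM in Phase 1. The Phase 1 mean of 44.1 CPM is at least 20.6-fold higher than 3 reads in the shallowest of these LP libraries. Trbc2 went from 43.7, 20.7 and 29.3 CPM to 594, 603 and 579 CPM, a log2 difference of 4.26 (SE 0.19, adjusted p = 2.08e-12). All 3 Phase 1 libraries were again far above the LPs. Trgc4 was not called, at 89.6, 75.1 and 79.9 CPM in LPs and 77.2, 93.6 and 94.3 CPM in Phase 1 (log2 difference 0.11, interval -0.26 to 0.49). Trgc1 had 1042, 988 and 774 CPM in LPs and 599, 575 and 603 CPM in Phase 1, and Trgc2 had 636, 624 and 577 and 517, 454 and 484 CPM. Every Phase 1 library was below every LP library in both genes. The log2 differences were -0.65 (SE 0.25, adjusted p = 0.251) and -0.34 (SE 0.46, adjusted p = 0.863), not called. Fitted without Phase 1 sgControl replicate 3, which enters only through the shared spread, their adjusted p were 1.51e-05 and 0.0514, with Trgc1 still under the fold threshold. Trdc was 0.52 (SE 0.14, adjusted p = 0.0485) higher in Phase 1, under the fold threshold. For Trac, -0.46 (adjusted p = 0.789) came from 7 to 23 reads in LPs and 8 to 14 in Phase 1.

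The next question was how these regions differ between LPs with sgCbfb and sgControl, which experiments 1 and 2 asked separately. In both, Trgc1 was higher and Trdc lower with sgCbfb, and each was called in each experiment. Trac and Trbc2 were also called lower in experiment 2. In experiment 1, where 1.69% of genes were called, 2 of the 7 regions were among them, and in experiment 2, where 4.33% of 13177 genes were called, 4 of the 6 tested were. Trbc1 did not pass the filter on low values in experiment 2. The median log2 differences of the members were -0.22 and -0.94, against 0 and -0.01 over all genes. The 2 tables were normalized separately, so each value is compared only within its experiment.

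Trgc1 rose from the LP sgControl levels given above to 1042, 988 and 774 CPM with sgCbfb in experiment 1, a log2 difference of 1.47 (SE 0.25, adjusted p = 0.000799). In experiment 2 it was 317, 265 and 345 CPM with sgControl and 579.8, 684 and 609 CPM with sgCbfb, a log2 difference of 1.02 (SE 0.12, adjusted p = 5.34e-07). No sgCbfb library overlapped the sgControl libraries in either experiment. In the fit without moderated variances the first of these calls was lost (adjusted p = 0.124). Without sgControl replicate 2 or sgCbfb replicate 2 of experiment 2, the second fell under the fold threshold, at 0.91 and 0.95.

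Trgc2 was not called in either experiment. It had 636, 624 and 577 CPM with sgCbfb in experiment 1, a log2 difference of 0.59 (SE 0.46, adjusted p = 0.735), and each of these libraries was above each sgControl library. Without Phase 1 sgControl replicate 3, which enters only through the shared spread, the adjusted p was 8.92e-05 at the same difference, under the fold threshold. In experiment 2 it had 394, 354 and 409 CPM with sgControl and 369, 420.2 and 381 CPM with sgCbfb, a log2 difference of 0.02 with an interval of -0.21 to 0.25. The groups overlapped there. Trgc4 had a log2 difference of 0.36 (SE 0.18, adjusted p = 0.454) in experiment 1 and, with 65.4, 54.3 and 67.9 CPM against 41.7, 47.7 and 31.0 CPM, of -0.64 (SE 0.15, adjusted p = 0.00426) in experiment 2, where the groups did not overlap but the fold threshold was not met. The sum of Trgc1, Trgc2 and Trgc4 was 1.01 (SE 0.26, adjusted p = 0.0349) higher and called in experiment 1, and 0.48 (SE 0.11, adjusted p = 0.00475) higher and under the fold threshold in experiment 2. The call in experiment 1 was lost when any 1 of the 6 LP libraries or of the 3 Phase 1 sgCbfb libraries was left out, with an adjusted p of 0.055 to 0.166.

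Trdc fell in every sgCbfb library of both experiments. In experiment 1 it had 113, 121 and 146 CPM with sgCbfb, and the log2 difference from sgControl was -1.42 (SE 0.14, adjusted p = 8.17e-07). In experiment 2 it had 321, 374 and 413 CPM with sgControl and 33.7, 47.7 and 61.2 CPM with sgCbfb, a log2 difference of -2.97 (SE 0.15, adjusted p = 1.38e-13). No library of one group reached the other, and Trdc was called under every alternative setting that was run, in both experiments. Trac had 4.94, 11.5 and 16.4 CPM with sgCbfb in experiment 1, which are 7, 20 and 23 reads, and a log2 difference of -1.52 (SE 0.47, adjusted p = 0.1) without overlap. It was called there with edgeR (adjusted p = 0.0459), with a pseudocount of 5 and without Phase 1 sgControl replicate 3, but not in the other fits. In experiment 2 it fell from 39.0, 28.1 and 22.6 CPM to 1.79, 4.83 and 4.28 CPM, a log2 difference of -2.77 (SE 0.27, adjusted p = 2.44e-08), and the groups did not overlap.

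At the beta locus, Trbc2 had a log2 difference of -0.22 (SE 0.19, adjusted p = 0.762) in experiment 1, where the sgCbfb libraries lay on both sides of the sgControl libraries. In experiment 2 it fell from 34.0, 37.2 and 37.0 CPM to 14, 14.5 and 15.9 CPM, a log2 difference of -1.23 (SE 0.18, adjusted p = 2.28e-05) without overlap. The beta sum was -0.27 (SE 0.18, adjusted p = 0.663) in experiment 1 and -1.27 (SE 0.18, adjusted p = 1.24e-05) in experiment 2, where it was called. Trbc1 was near the limit of detection in LPs. Its reads in experiment 2 were 8, 0 and 3 with sgControl, 0, 0 and 0 with sgCbfb, 3, 1 and 0 with sgCTCF and 0, 0 and 1 with sgMed12, too few for a difference to be detectable at this depth.

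In Phase 1 cells, sgCbfb was compared with sgControl. Trbc1, Trgc4 and Trdc were called lower with sgCbfb, Trbc2 was not called, and Trgc1 was higher but under the fold threshold. These 3 of 7 stand against 3.52% of genes called, and the median log2 difference of the 7 was 0.11, against 0.06 over all genes. Trbc1 fell from 174, 152 and 171 CPM to 38.3, 52.8 and 41.3 CPM, a log2 difference of -1.90 (SE 0.36, adjusted p = 0.00156), while Trbc2 stayed between 490.3 and 603 CPM in all 6 libraries, with a log2 difference of 0.11 and an interval of -0.28 to 0.50. The beta sum was not called (-0.17, adjusted p = 0.697). No test of the change in Trbc1 against that in Trbc2 was run.

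Trgc4 fell from 179, 161 and 199 CPM to 77.2, 93.6 and 94.3 CPM, a log2 difference of -1.01 with an interval of -1.39 to -0.64, and no library overlapped. It is close to the fold threshold: without Phase 1 sgControl replicate 3 it was -0.94 and without Phase 1 sgCbfb replicate 1 it was -0.92, both under it. Trdc fell from 368, 375 and 449.7 CPM to 206, 185 and 156 CPM, a log2 difference of -1.13 (SE 0.14, adjusted p = 1.11e-05). Every sgCbfb library was under every sgControl library. Trgc1 had 599, 575 and 603 CPM with sgCbfb, 0.89 (SE 0.25, adjusted p = 0.0331) higher than sgControl. Trgc2 had 517, 454 and 484 CPM with sgCbfb, with a log2 difference of 0.33 (SE 0.46, adjusted p = 0.781). Without the third sgControl library that of Trgc2 was -0.68 (adjusted p = 3.76e-05), so its direction rests on that library, and that of Trgc1 was 0.39 (adjusted p = 0.028). Trac stood between 2.58 and 8.80 CPM in all 6 Phase 1 libraries, with a log2 difference of 0.47 (SE 0.47, adjusted p = 0.668).

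The difference between the sgCbfb effect in Phase 1 and that in LPs was tested as an interaction in the same fit. Of the 7 constant regions 1 was called, where 1.19% of all genes were. Trgc4 had an interaction of -1.37 (SE 0.26, adjusted p = 0.00573), with lower sgCbfb levels in Phase 1 and overlapping levels in LPs, and it was not called in the fit without moderated variances (adjusted p = 0.0735). Trdc, which was called lower with sgCbfb at both stages, had an interaction of 0.29 with an interval of -0.11 to 0.69. For Trgc1 and Trgc2 the interactions were -0.58 (SE 0.35, adjusted p = 0.604) and -0.26 (SE 0.64, adjusted p = 0.937) with all libraries, and -1.08 (adjusted p = 4.36e-06) and -1.27 (adjusted p = 1.88e-07) without Phase 1 sgControl replicate 3, where both were called. The gamma sum had -0.73 (adjusted p = 0.51) with all libraries and -1.28 (adjusted p = 1.13e-08) without that library. Trbc1 and Trac had -1.05 (SE 0.51, adjusted p = 0.486) and 2.0 (SE 0.67, adjusted p = 0.219).

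**Figure D2:**
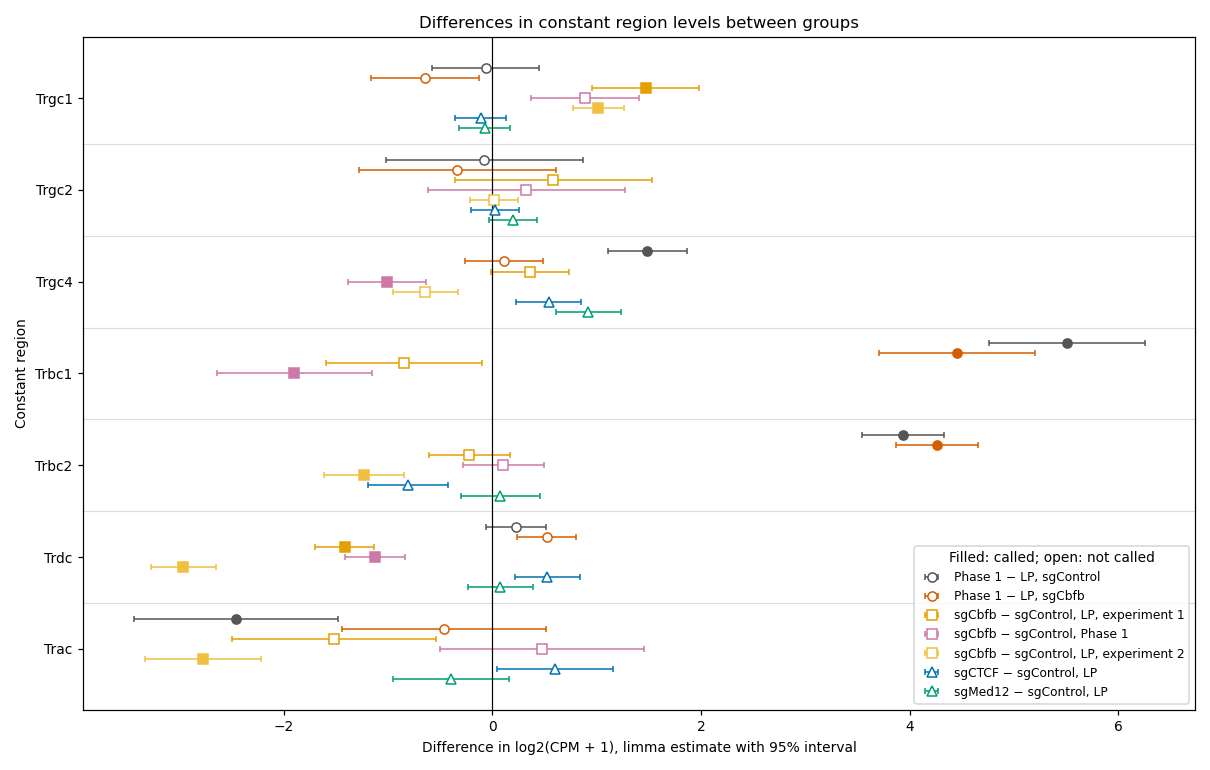
Log2 difference in log2(CPM + 1) for each constant region in the comparisons with sgControl and between stages, with 95% intervals from limma; filled points are called and open points are not. Trbc1 and Trbc2 lie furthest right in the comparison of stages, and Trdc lies left of 0 in each of the 3 comparisons of sgCbfb with sgControl.

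Experiment 2 also asked whether the same regions differ in LPs with sgRNAs to Ctcf or Med12. With sgCTCF, limma called 0 of the 6 constant regions tested, where 2.43% of all genes were called. At an unadjusted p under 0.05 there were 4 of them, and 3 had an adjusted p under 0.05 without reaching the fold threshold. The share of all genes at these looser thresholds was not counted, here or for such counts below, so they cannot be set against it. edgeR also called 0. Trbc2 was -0.81 (SE 0.18, adjusted p = 0.00478), from the sgControl levels given above to 18.0, 18.9 and 24 CPM. Trgc4 was 0.54 (SE 0.15, adjusted p = 0.0214) at 86.4, 87.7 and 99.1 CPM, and Trdc was 0.53 (SE 0.15, adjusted p = 0.0235) at 509.6, 521 and 562 CPM. Trac, at 46.4, 41.8 and 46.2 CPM, was 0.60 (SE 0.27, adjusted p = 0.178). In these 4 genes the sgCTCF and sgControl libraries did not overlap, as was so for 31.1% of all genes tested. Trgc1 had 261, 268 and 327 CPM and Trgc2 364, 387 and 429 CPM, with intervals of -0.36 to 0.13 and -0.20 to 0.26 around 0.

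With sgMed12, limma and edgeR again called 0 of the 6, where 1.03% of all genes were called, and 1 had an unadjusted p under 0.05. This was Trgc4, at 100.3, 141 and 118 CPM, with a log2 difference of 0.92 (SE 0.15, adjusted p = 0.00103) and every library above sgControl. Without sgMed12 replicate 1 it was 1.04 (adjusted p = 0.000214) and called. The other 5 overlapped sgControl. Trdc had 427, 321 and 425 CPM (interval -0.23 to 0.39), Trbc2 29.4, 46.2 and 40.6 CPM (interval -0.30 to 0.46) and Trac 23.5, 14.8 and 30.1 CPM (interval -0.95 to 0.16). Trgc1 had 253, 333 and 296 CPM and Trgc2 376, 528 and 433 CPM, with intervals of -0.32 to 0.17 and -0.03 to 0.43. The sgMed12 libraries agreed least with each other in experiment 2, which widens what these tests could miss. Replicates 1 and 2 had r = 0.961 over genes, against 0.978 or more within the other groups of that experiment. The third Phase 1 sgControl library of experiment 1 had 0.920 with its less similar mate.

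Set against each other, the sgRNAs of experiment 2 separated at 4 of 6 constant regions between sgCTCF and sgCbfb (6.87% of all genes), at 5 of 6 between sgMed12 and sgCbfb (4.48%) and at 0 of 6 between sgMed12 and sgCTCF (4.01%). In the last, 4 had an unadjusted p under 0.05, 3 had an adjusted p under 0.05, and edgeR called 0. The medians of the members were 0.80, 1.43 and 0.11, against -0.02 over all genes in each. The comparisons share their libraries, so they are not separate evidence. Trdc was 3.49 (SE 0.15, adjusted p = 3.77e-15) higher with sgCTCF than with sgCbfb and 3.04 (SE 0.15, adjusted p = 8.79e-14) higher with sgMed12. Its levels ran from sgCTCF through sgMed12 and sgControl to sgCbfb. The middle neighbours did not differ beyond their spread, and sgMed12 was -0.45 (SE 0.15, adjusted p = 0.036) against sgCTCF. Trac followed the order sgCTCF, sgControl, sgMed12, sgCbfb, with 3.37 (SE 0.27, adjusted p = 5.23e-10) and 2.38 (SE 0.27, adjusted p = 3.81e-07) against sgCbfb and -1.0 (SE 0.27, adjusted p = 0.0102) between sgMed12 and sgCTCF, under the fold threshold.

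Trgc4 ran from sgMed12 through sgCTCF and sgControl to sgCbfb, and the 2 highest groups did not pass the test against each other (0.38, SE 0.15, adjusted p = 0.0782). Against sgCbfb, Trgc4 was 1.18 (SE 0.15, adjusted p = 1.46e-06) with sgCTCF and 1.56 (SE 0.15, adjusted p = 3.15e-08) with sgMed12, both called. Trgc1 took the reverse place, highest with sgCbfb, with -1.13 and -1.09 for sgCTCF and sgMed12 against it (adjusted p = 6.3e-08 and 2.11e-07), while sgControl, sgMed12 and sgCTCF lay between 253 and 345 CPM. Without sgMed12 replicate 1 the second was -0.99 and no longer called. Trbc2 was lowest with sgCbfb, then sgCTCF, then sgControl and sgMed12. It was 1.31 (SE 0.18, adjusted p = 9.65e-06) with sgMed12 against sgCbfb, called, 0.42 (SE 0.18, adjusted p = 0.107) with sgCTCF against sgCbfb, not called, and 0.89 (SE 0.18, adjusted p = 0.00144) with sgMed12 against sgCTCF, under the fold threshold.

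The share of reads within a pair of similar genes describes the split without the level. Of reads on Trgc1 and Trgc2, Trgc1 took 42.7% to 47.9% in the LP sgControl libraries of experiment 1 and 57.3% to 62.1% with sgCbfb. In experiment 2 it took 42.8% to 45.8% with sgControl and 61.1% to 61.9% with sgCbfb, against 40.9% to 43.2% with sgCTCF and 38.7% to 40.6% with sgMed12. The sgCbfb libraries were above all other LP libraries in each experiment. In Phase 1, sgCbfb libraries had 53.7% to 55.9%, and the sgControl libraries 34.3%, 39.3% and, in the third library, 62.6%. Trbc1 took 22.5% to 23.7% of beta constant reads in Phase 1 sgControl libraries and 6.05% to 8.05% with sgCbfb, beside 6.35% to 8.48% of LP sgControl libraries. These shares were not tested.

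**Figure D3:**
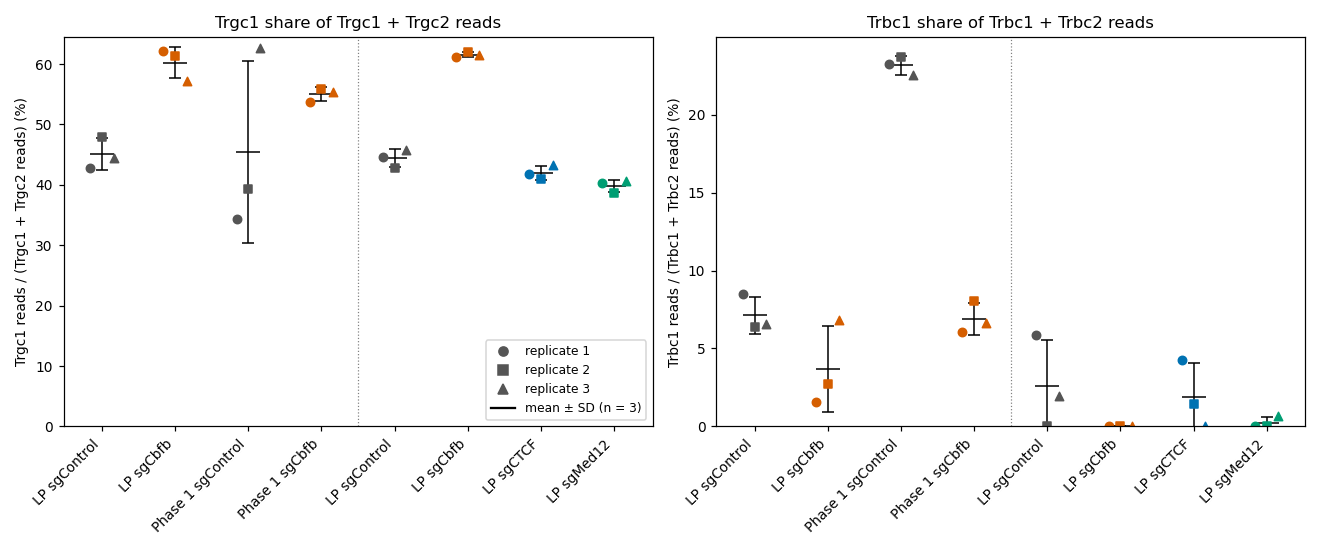
Share of Trgc1 in the reads on Trgc1 and Trgc2 (left, percent) and of Trbc1 in the reads on Trbc1 and Trbc2 (right, percent), by group, with a point for each library and lines for the mean and SD (n = 3, cut off at 0); the dotted line divides the experiments. The Trgc1 share of the LP sgCbfb libraries is 57.3% or more, above the other LP groups, and the Trbc1 share is 22.5% or more in the Phase 1 sgControl group and in no other.

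Variable, diversity and joining segments are part of a rearranged transcript, but few of the reads sampled at the 3′ end lie there. Unrearranged segments can be transcribed too, so a read on one does not show a rearranged transcript. The tables list 263 other rows of the 4 receptor loci. Of these, 62 had any read, 1206 reads in all 24 libraries against 89060 on the 7 constant regions, and 0 had a mean over 10 CPM over the 24 libraries. Trgv2, a gamma variable segment with the highest mean of them, had 0, 1.24 and 1.93 CPM in LP sgControl and 20.5, 6.45 and 22.7 CPM in Phase 1 sgControl libraries. It was called higher in Phase 1 (3.06, SE 0.59, adjusted p = 0.00183), a call lost when only those 2 groups were fitted (adjusted p = 0.0505). With sgCbfb in Phase 1 it was -2.27 (SE 0.59, adjusted p = 0.0219), a call lost in 8 alternative fits. Trgv1 (6.35, 16.1 and 5.13 CPM) and Trbv13-2 (4.24, 7.10 and 11 CPM) were also above their LP levels in Phase 1 sgControl, with adjusted p = 0.0047 and 0.0202, but stayed under a mean of 10 CPM. Trdj1 and Trgj2 had means under 5 CPM in every group and were not called against sgControl or between stages.

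The genes that make and accompany a receptor were taken from lists. The recombination genes are Rag1 and Rag2, which cut the DNA, and Dntt, which adds bases at the joints. Their summed level was 68.7 to 75.8 CPM in LP sgControl libraries of experiment 1 and 309.7 to 414 CPM with sgCbfb, and 45.3 to 63.5 CPM and 354 to 398 CPM in experiment 2. All 3 were called higher with sgCbfb in LPs of both experiments, with median log2 differences of 1.67 and 2.74 against 0 and -0.01 over all genes, and Dntt and Rag1 in Phase 1. Dntt was 2.63 higher in LPs of experiment 1, 3.16 in LPs of experiment 2 and 3.27 in Phase 1 (adjusted p = 1.96e-06, 5.06e-13 and 4.42e-08). With sgMed12 Dntt was called lower (-1.49, SE 0.17, adjusted p = 2.98e-05), and with sgCTCF Dntt was -0.38 (SE 0.17, adjusted p = 0.177) and not called. The recombination genes had their highest LP levels in experiment 2 in the sgCbfb group. Trdc, Trac, Trgc4 and Trbc2 had their lowest there, whereas Trgc1 had its highest and Trgc2 was 390 CPM against 385 CPM with sgControl. In LPs of experiment 1, Trgc4 was 81.5 CPM with sgCbfb and 64.5 CPM with sgControl. A relation between these genes and the constant regions was not tested.

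Of the 5 genes for the CD3 chains and the pre-T alpha chain, which join the receptor at the cell surface, Cd3g, Cd247 and Cd3d were called higher in sgControl cells of Phase 1 than of the LP stage, and lower with sgCbfb in Phase 1. Their summed level was 84.4 to 145 CPM in Phase 1 sgControl libraries, 4.12 to 9.08 CPM with sgCbfb, and 9.29 to 13.0 CPM in LP sgControl libraries. The median log2 differences of the 5 were 2.12 and -2.99, against -0.07 and 0.06 over all genes. Cd3g was 5.00 (SE 0.54, adjusted p = 1.31e-06) in the first comparison and -3.70 (SE 0.54, adjusted p = 9.68e-05) in the second. The call of Cd3d in the first (1.78, SE 0.50, adjusted p = 0.0349) was lost in 8 alternative fits, among them those without each LP and each Phase 1 sgControl library. Trbc2 stood at 579 to 603 CPM in the Phase 1 sgCbfb libraries in which the CD3 genes were low.

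Of the 6 genes of the IL-7 receptor and its signalling (Il7r, Il2rg, Jak1, Jak3, Stat5a and Stat5b), a pathway known to open the gamma locus, limma called Il7r, Il2rg and Stat5b in comparisons between sgRNAs of experiment 2, and none against sgControl or between stages. Il7r was -0.10 and -0.69 with sgCbfb in LPs (adjusted p = 0.888 and 0.000825). Of 12 immunoglobulin constant regions only Ighm had a mean over 10 CPM in any group. It fell in Phase 1 with sgControl (-2.50, SE 0.18, adjusted p = 4.3e-09) and with sgCbfb (-1.02, SE 0.18, adjusted p = 0.00196), and with sgCbfb in LPs of experiment 2 (-1.05, SE 0.13, adjusted p = 2.21e-06); the second of these was lost in 4 alternative fits and the third without sgControl replicate 1.

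Lymphoid progenitor markers (Ptprc, Kit, Flt3, Il7r and Dntt) summed to 714 to 1626 CPM over all libraries, and markers of other cells were summed beside these results. Dntt and Flt3 were called lower in Phase 1 than in LPs, with sgControl and with sgCbfb. Kit was called higher in Phase 1 with sgControl. Early T genes (Tcf7, Gata3, Il2ra, Notch3, Dtx1 and Hes1) reached 808 to 951 CPM in Phase 1 sgControl libraries, against 37.8 to 54.9 CPM in LPs, and 319.8 to 347 CPM in Phase 1 with sgCbfb. All 6 were called higher in Phase 1 sgControl cells. Cd163l1, a marker of gamma-delta T cells, was at 68.2 to 88.2 CPM in Phase 1 sgControl, 14.2 to 28.9 CPM in LP sgControl and 4.13 to 10.1 CPM in Phase 1 sgCbfb libraries, and Sox13, another, was at 0 in the first 2 of these groups. Natural killer markers summed to 139 to 188, 15.4 to 20.1 and 7.54 to 17.7 CPM in the same groups, mostly Nkg7, with Ncr1 at 0. In experiment 2 Cd163l1 was at 49.9 to 67.7 CPM with sgCTCF, 26.1 to 28.5 CPM with sgMed12, 11.2 to 21.9 CPM with sgControl and 0 to 0.298 CPM with sgCbfb. Of the 5 gamma-delta T cell markers listed, 2 were tested in experiment 2. Only Cd163l1 was called against sgControl, lower with sgCbfb and higher with sgCTCF. The natural killer sum there was 43.9 to 54.6 CPM with sgCTCF, 23.7 to 35.2 CPM with sgMed12, 16.6 to 22.2 CPM with sgControl and 1.26 to 4.29 CPM with sgCbfb. Nkg7 was called lower with sgCbfb (-3.32, adjusted p = 4.1e-09). Klrd1 and Prf1 were called higher with sgCTCF (1.58 and 1.49, adjusted p = 0.00814 and 0.00836), calls lost in 5 and 3 alternative fits, among them those without sgControl replicate 3. Cd3e, Cd8a and Cd8b1, markers of mature alpha-beta T cells, had 0 reads in sgControl and sgCTCF libraries of experiment 2. The sum of the 7 alpha-beta T cell markers was 10.3 to 13.0 CPM in LP sgControl and 28.7 to 44.4 CPM in LP sgCbfb libraries of experiment 1, and 23.5 to 36.8 and 54.2 to 76.7 CPM in Phase 1. In experiment 2 it was 10.7 to 22.4 CPM with sgControl and 23.2 to 35.9 CPM with sgCbfb, with 0 of the markers called between them. Only Cd28 was over 10 CPM in the sgCbfb groups of experiment 1. There, 3 of the 7 in LPs and 4 in Phase 1 were at or under 3 reads in every library. Cd28, a co-stimulatory receptor, was called higher with sgCbfb in LPs of experiment 1 (1.52, adjusted p = 0.008, lost without LP sgControl replicate 2 and with only those groups fitted) and in Phase 1 (1.83, adjusted p = 0.00077). B lineage markers reached at most 27.8 CPM, with Cd79a at 0 in every group and Pax5 called higher with sgCTCF (1.27, adjusted p = 0.0064), and OP9 stromal markers at most 39.8 CPM. The part of these cells in the results was not tested.

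The genes on either side of the constant regions were described as well. They were chosen after the data had been seen, as the nearest tested gene on each side that is no receptor segment. Dad1, a subunit of the oligosaccharyltransferase, lies 11.3 kb beyond Trac, and Ephb6, a receptor of the Eph family, 57.1 kb beyond Trbc2. With sgCTCF, Dad1 rose from 198, 151 and 173 CPM to 525, 461 and 477 CPM, a log2 difference of 1.49 (SE 0.11, adjusted p = 3.09e-09). Ephb6 rose from 4.75, 7.09 and 7.06 CPM to 40.5, 44.0 and 35.6 CPM, a log2 difference of 2.50 (SE 0.27, adjusted p = 9.69e-07). All sgCTCF libraries were above all others of experiment 2 in both genes, whereas Trac and Trbc2 in the same libraries were 0.60 and -0.81 and not called. Neither neighbour was called with sgCbfb or sgMed12 against sgControl (-0.34 and -0.64, and -0.22 and 0.26), although Trac fell by 2.77 with sgCbfb. Dad1 was nonetheless lower with sgCbfb in LPs of both experiments. By limma its adjusted p was 0.0552 in experiment 2. In experiment 1 it was -0.55 (SE 0.15, adjusted p = 0.0494), under the fold threshold. Stard3nl, 4.9 kb beyond Trgc4, was not called in any comparison with sgControl or between stages. Vps41, 347.3 kb from Trgc1 on the other side of the gamma constant regions, was called in none of the 11. 5830405F06Rik lies 475.1 kb from Trbc1, on the other side of the beta constant regions. It had 0, 1.24 and 7.71 CPM in LP sgControl, 14.8, 19.4 and 7.34 CPM in Phase 1 sgControl and 1.30, 1.26 and 2.36 CPM in Phase 1 sgCbfb libraries. It was not called, with log2 differences of 2.37 (SE 0.76, adjusted p = 0.07) between stages and -2.42 (SE 0.76, adjusted p = 0.0663) with sgCbfb in Phase 1. Sall2 lies 1814.1 kb from Trdc, on the other side of the delta and alpha constant regions. It was called only for sgMed12 against sgCTCF among the 11 comparisons (-1.22, SE 0.26, adjusted p = 0.00192).

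**Figure D4:**
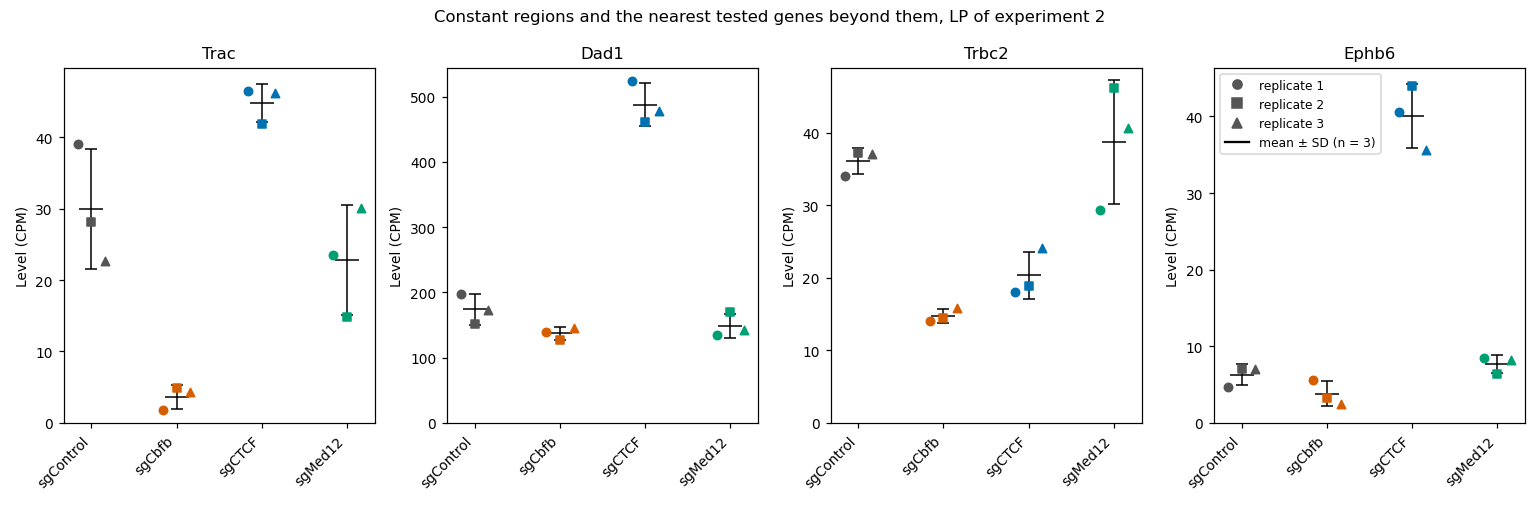
Levels in CPM of Trac, its neighbour Dad1, Trbc2 and its neighbour Ephb6 in the 4 LP groups of experiment 2, with a point for each library and lines for the mean and SD (n = 3); the axes differ in scale and start at 0. Dad1 and Ephb6 are higher in the sgCTCF libraries than in the other 9, while Trac is lowest with sgCbfb and Trbc2 is lowest with sgCbfb and sgCTCF.

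For each constant region the genes whose pattern was most like it were found by the lower of 2 Pearson correlations of log2(CPM + 1), over the 12 libraries of each experiment, among 8253 genes with a mean over 10 CPM. The libraries of a group share their condition and the points share library depth, so these are descriptions. Trdc was closest to Cd7 (r = 0.97 and 0.98), to 5830411N06Rik (0.96 and 0.98) and to Lck (0.94 and 0.98). Trgc1 was closest to Cd44 (0.94 and 0.95), Dusp2 (0.95 and 0.93) and St3gal2 (0.94 and 0.91). Trac was closest to Clcn5 (0.87 and 0.94), Trbc2 to Nrgn (0.88 and 0.89), Trgc4 to Cpne2 (0.87 and 0.83) and Trgc2 to Cers2 (0.87 and 0.84). For Trgc2 the third Phase 1 sgControl library bears on this, since Cers2 was also among the 60 genes low there. Among the members, Trgc1 and Trdc ran opposite to each other in both experiments (r = -0.90 and -0.94), whereas Trdc and Trac had r = 0.14 in experiment 1 and 0.96 in experiment 2.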

How the data were processed

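RNA of sorted Cas9-LPs was sequenced with QuantSeq, a 3′ mRNA method, in 24 libraries. Per the labels and the study's methods the authors used fastp for trimming and STAR for mapping, against mm10, and counted reads by gene (tool versions are not given in the sources used here). The deposited values carry the name TPM but have the same sum in every library and are CPM: 99.98% or more of them were whole multiples of 1 read within 0.05 reads. The authors' mean column in the table of experiment 2 was not used, and 1 row without an identifier was left out of each table.

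Genes that reached 1 CPM in 3 or more libraries of an experiment entered the test, limma 3.58.1 (eBayes with trend, R 4.3.3) on log2(CPM + 1), with the 4 groups of an experiment in one fit and Benjamini-Hochberg adjustment over all genes tested. Intervals are 95%. A pseudocount understates the change of low genes. The count test, run on the recovered reads, was edgeR 4.0.16. Scripts used Python 3.11.15, pandas 2.3.3, numpy 2.4.6 and matplotlib 3.10.9, and the tests were checked on simulated data. The members and lists were chosen with earlier results of these data known. Named genes were all members, up to 4 genes of each list with the highest mean, genes counted as called, the 5 other receptor rows with the highest mean, and the 3 genes most like each member. Coordinates and sequences are from GENCODE M21 (mm10). A cell type marker and the sum that held it are not reported here. The other settings tried are given with the closing observations.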

Additional observations from a re-analysis of the deposited data

Results flagged for a closer look

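Trgc4 differed in its response to sgCbfb between contexts. The sgCbfb effect in Phase 1 minus that in LPs was -1.37 on the log2 scale (SE 0.26, adjusted p = 0.00573, limma with Benjamini-Hochberg adjustment), as tested by the interaction term.

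In LPs, the sgCbfb effect on Trgc4 was 0.36 in experiment 1 and -0.64 in experiment 2. These point in opposite directions, the groups overlapped in the first experiment and not in the second, and the difference between the experiments was not tested, since the 2 tables were normalized separately.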

How the results depend on the processing

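Counts of constant regions called stayed within 1.5 times of those reported under the other settings, with these exceptions. Without moderated variances the count was 1 for sgCbfb in LPs of experiment 1 and 0 for the interaction, which was 2 with a pseudocount of 5. With no fold threshold it was 3 for sgCTCF and 1 for sgMed12 against sgControl, and 3 for sgMed12 against sgCTCF. Leaving out 1 library gave 1 to 3 for the interaction, 2 to 3 for sgCbfb in LPs of experiment 1 and in Phase 1, 3 to 4 for sgCbfb in experiment 2, 4 to 5 for sgMed12 against sgCbfb, 0 to 1 for sgMed12 against sgControl and against sgCTCF, and 4 in the Phase 1 against LP sgControl comparison and for sgCTCF against sgCbfb. Called paralogue sums, leaving out 1 library, numbered 2 to 4 in experiment 1 and 2 to 3 in experiment 2.

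Of 548 alternative values of called members, 541 kept the call and 7 lost it. Trac in experiment 1 LPs was called with a pseudocount of 5 (adjusted p = 0.0398) and Trbc1 for the interaction likewise (-1.48, adjusted p = 0.0298). Signs turned only for members that were not called. For Phase 1 against LP, Trgc1 was 0.0032 with median-of-ratios scaling and 0.12 with edgeR, and Trgc2 was 0.47 with edgeR. Trgc2 with sgCbfb in Phase 1 was -0.21 with edgeR. Leaving out 1 library gave, for Phase 1 against LP, -0.34 to 0.44 for Trgc1 and -0.68 to 0.93 for Trgc2; with sgCbfb, -0.49 to 0.034 for Trbc2 in LPs of experiment 1, -0.68 to 0.93 for Trgc2 in Phase 1, -1.27 to 0.35 for its interaction and -0.043 to 0.061 in experiment 2. For sgCTCF, Trgc2 ranged over -0.035 to 0.082 against sgControl and -0.053 to 0.066 against sgCbfb. For sgMed12 the ranges were -0.060 to 0.26 for Trbc2, -0.18 to 0.031 for Trgc1 and -0.020 to 0.21 for Trdc against sgControl, and -0.051 to 0.14 for Trgc1 against sgCTCF. The cause was not tested.

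Correlations of deviations between same-numbered libraries were -0.0381 to 0.140 in experiment 1, with 2 of 18 over 0.1, and -0.130 to 0.216 in experiment 2, with 6 of 18 over 0.1. All 3 pairs were over 0.1 only between sgCTCF and sgCbfb, so the numbers may pair those groups and are not shown to pair the others. With the replicate block the counts of called constant regions were 4, 2, 2, 3, 1, 4, 0, 0, 4, 5 and 0 over the 11 comparisons, as without it. Depth limits Trbc1 in LPs, which lies near 3 reads per library.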
